A study of Mus musculus with 7 samples.

Results

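The genes described here encode the proteins of the mitochondrial ribosome. They were taken by name, as every protein-coding gene whose mouse symbol starts with Mrpl or Mrps followed by a digit. GENCODE M21 lists 78 such genes, of which 77 had a row in the count table of 39017 gene IDs, and the other one, Mrpl33, was not analysed here. By the known structure of the mammalian mitochondrial ribosome, 50 of the 77 belong to the large subunit and 26 to the small subunit. The large subunit includes Mrps30 and Mrps18a, despite their symbols. Mrps36 was counted in neither, because its protein is now known as a subunit of the 2-oxoglutarate dehydrogenase complex of the citric acid cycle. All 77 passed the filter on low counts.

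Mitochondria carry their own ribosome, which translates only the few messages of mitochondrial DNA, all of them for subunits of the respiratory chain and ATP synthase. Its ribosomal RNAs are made in the mitochondrion, whereas its proteins are encoded in the nucleus, translated by cytosolic ribosomes and imported. Some of these proteins have homologues in bacterial ribosomes, and others are found in mitochondrial ribosomes and not in bacterial ones. Neurons depend on mitochondrial ATP, and fast-spiking GABAergic interneurons are known for a high demand for it.

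The messages were counted in hippocampal libraries made by TRAP (translating ribosome affinity purification), which pulls RNA down with a tagged ribosomal protein. The mice were GAD2 cre+ and L10-EGFP+, so that Cre recombinase is made where Gad2 is active (GABAergic neurons) and the tag is on the L10 protein of cytosolic ribosomes. Every library came from hippocampus, and RNA of 2 pooled hippocampi went into a TRAP sample. The 3 bound libraries (titles GAD_ctrl) hold RNA labelled as bound to the tagged ribosomes, and the 4 unbound libraries hold RNA labelled as unbound. Unbound replicates 1 and 2 are titled UBS and replicates 3 and 4 UBGS, and the labels do not say what these titles mean. The sources used here give no age, sex or strain and no pairing of libraries, and whether libraries came from separate animals is not stated, so every p-value reflects library-to-library spread, which may be technical.

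Library totals ranged from 38690380 to 51953811 counts in bound and from 40465007 to 47984798 counts in unbound libraries. Levels are CPM values, counts scaled by library size with TMM factors, and each log2 fold change is bound minus unbound. Gad2 stood at 745.5 ± 20.3 CPM in bound (SD, n = 3) and 149.4 ± 42.1 CPM in the unbound libraries (SD, n = 4), and Slc17a7, the vesicular glutamate transporter of excitatory neurons, at 14.9 ± 2.38 CPM in the bound and 506 ± 21.2 CPM in the unbound libraries. The summed level of 9 GABAergic neuron markers ran from 5975 to 7855 CPM in the bound and from 583.6 to 719.8 CPM in the unbound libraries. All 7 microglia markers rose in bound libraries without overlap (median log2 1.86). They summed to 191.3, 441.2 and 151.9 CPM in bound replicates 1, 2 and 3 and to between 54.6 and 77.0 CPM in the unbound libraries, highest in bound replicate 2. Excitatory neuron (6 of 6), oligodendrocyte (5 of 5) and astrocyte (5 of 6) markers fell in bound libraries, and no marker was at 0 in every library. The part of other cell types in the results below was not tested. Each library is bulk RNA, so fewer cells that make a message and less of that message per cell cannot be told apart. The groups also differ in whether RNA was labelled as bound to the tagged ribosomes. The share of a message that was on ribosomes cannot be told apart from these either.

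Most genes of the mitochondrial ribosome were higher in the RNA on the tagged ribosomes. Of the 77, 66 rose in bound libraries and 1 fell (edgeR quasi-likelihood test, adjusted p under 0.05), while 31.0% of all 19563 genes tested rose and 30.7% fell (61.7% either way). The median log2 fold change was 0.91 over the 77 genes and -0.01 over all genes tested. Of the 66, 33 were at least 2-fold higher, which 14.6% of all genes were. The bound libraries all lay above the unbound ones for 64 of the 77, against 31.7% of all genes, and all below them for 1, against 31.6%. Tested against a 1.5-fold minimum, 45 of the 77 were higher and none lower by edgeR, where 16.6% of all genes were higher and 18.4% lower. Together the 77 genes took 0.330%, 0.321% and 0.326% of the counts in bound and 0.124%, 0.138%, 0.138% and 0.137% in unbound libraries. These shares use whole totals, and mitochondria-encoded RNA, which took 0.0867% to 0.123% of the bound and 28.5% to 32.9% of the unbound totals, is part of them. On the TMM scale, where that RNA weighs little, the summed level was 2746 ± 99.9 CPM in the bound and 1527 ± 39.5 CPM in the unbound libraries. Scaling by library totals shifted the median of the 77 genes to 1.348 and that of all genes to 0.43, with 75 higher and none lower by edgeR (47.5% of all genes higher, 18.9% lower, 66.4% either way).

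**Figure D1:**
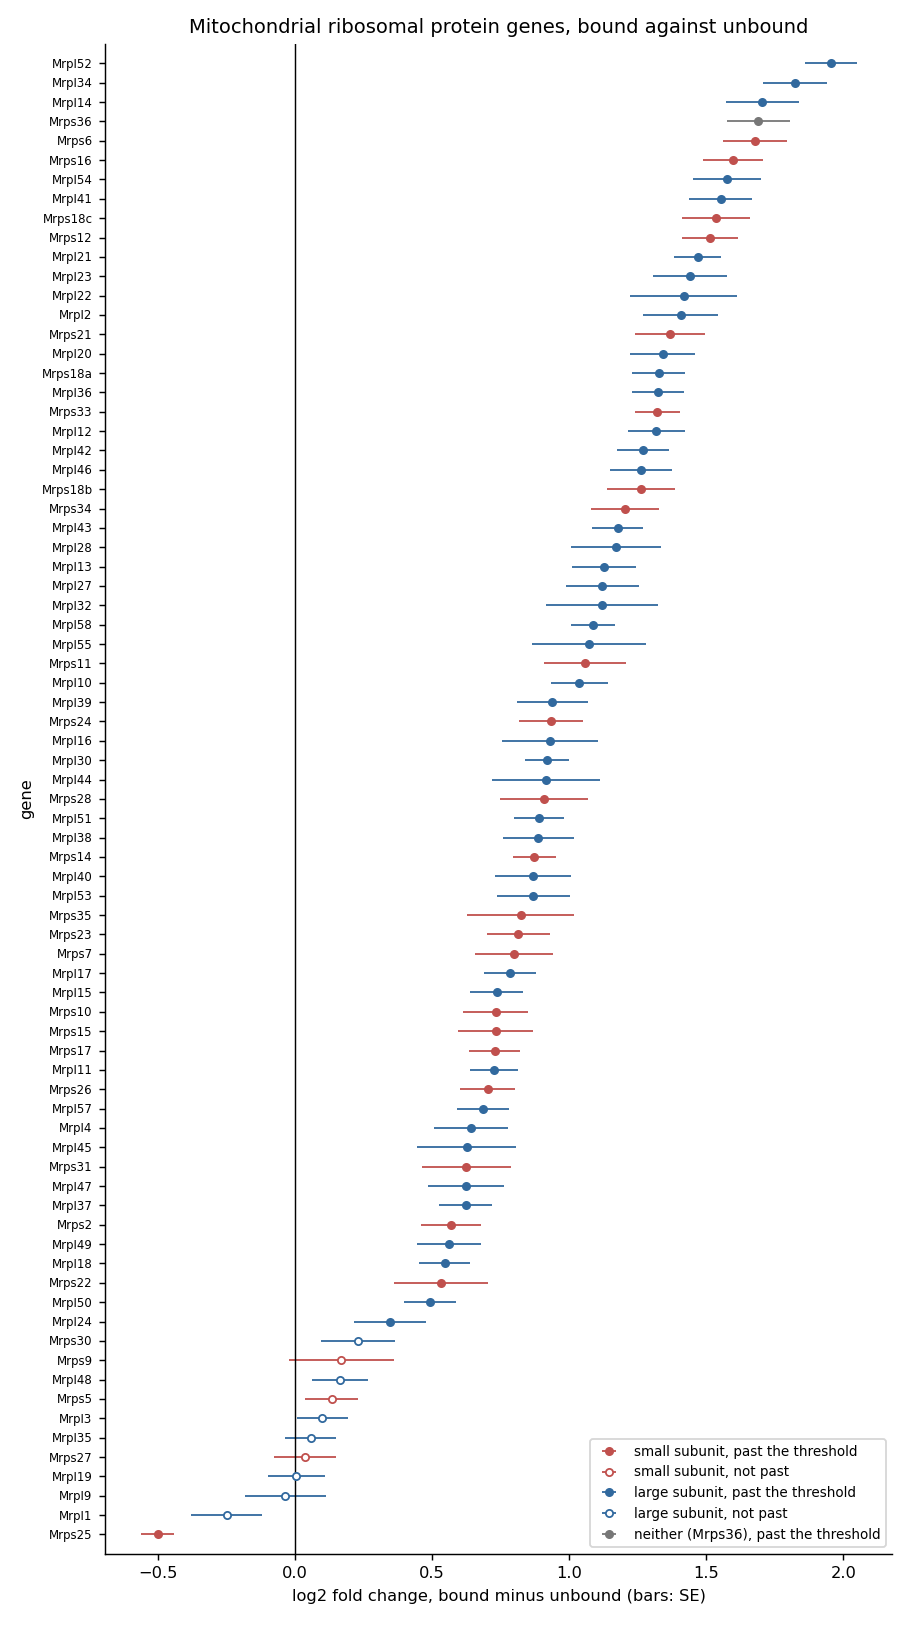
Log2 fold change (x axis, bound minus unbound, bars SE) of each of the 77 genes (y axis), coloured by subunit, with filled points past the adjusted p of 0.05. All but 11 genes lie right of 0 and past the threshold, Mrps25 at -0.50 is the only filled point on the left. Large-subunit genes run from -0.25 to 1.95 and small-subunit genes from -0.50 to 1.68.

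The steepest rises were in genes of both subunits. Mrpl52, a large-subunit protein with no bacterial homologue, stood at 37.9, 35.4 and 40.4 CPM in the bound and at 10.02, 9.28, 9.91 and 9.91 CPM in the unbound libraries. The groups did not overlap (log2 1.95, SE 0.095, edgeR adjusted p = 3.2e-08). Mrpl34, whose bacterial homologue is among the smallest proteins of the large subunit, stood at 34.9, 36.0 and 41.2 CPM in the bound and at 9.11, 11.1, 11.98 and 9.98 CPM in the unbound libraries (log2 1.82, SE 0.118, edgeR adjusted p = 2.5e-07). Mrpl14 stood at 17.6, 18.9 and 19.5 CPM in the bound and at 6.35, 4.75, 6.11 and 5.66 CPM in the unbound libraries, a 3.26-fold difference. It encodes a conserved protein at the face where the subunits meet, and 11.2% of its exon length overlaps Tmem63b on the opposite strand.

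In the small subunit, Mrps6 stood at 31.1, 33.0 and 37.9 CPM in the bound and at 10.8, 11.8, 10.7 and 9.16 CPM in the unbound libraries (log2 1.68, SE 0.117, edgeR adjusted p = 4.3e-07). Its exons overlap those of Slc5a3 and another gene on the same strand by 19.9% of their length, and Slc5a3 went the other way, at 41.9 ± 5.38 CPM in the bound and 62.4 ± 4.73 CPM in the unbound libraries. Mrps16 stood at 23.5, 23.8 and 27.8 CPM in the bound and at 7.79, 8.37, 8.53 and 8.42 CPM in the unbound libraries, 3.03-fold higher. Both encode small-subunit proteins that bacteria share, and the lowest bound library was well above the highest unbound one for each. Mrps12, which encodes a decoding-centre protein in which mutations make bacteria resistant to streptomycin, stood at 42.7, 45.5 and 47.6 CPM in the bound and at 13.8, 16.5, 17.1 and 16.0 CPM in the unbound libraries, 2.86-fold higher.

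Mrps36, the gene set apart from the ribosome above, rose as well. It stood at 59.3, 57.6 and 67.4 CPM in the bound and at 22.4, 16.4, 19.6 and 17.8 CPM in the unbound libraries (log2 1.69, SE 0.115, edgeR adjusted p = 3.6e-07). Its value is uncertain, because 3 near-identical pseudogene copies in the table took 66.4 CPM in the bound and 20.8 CPM in the unbound libraries, about as much as the gene.

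**Figure D2:**
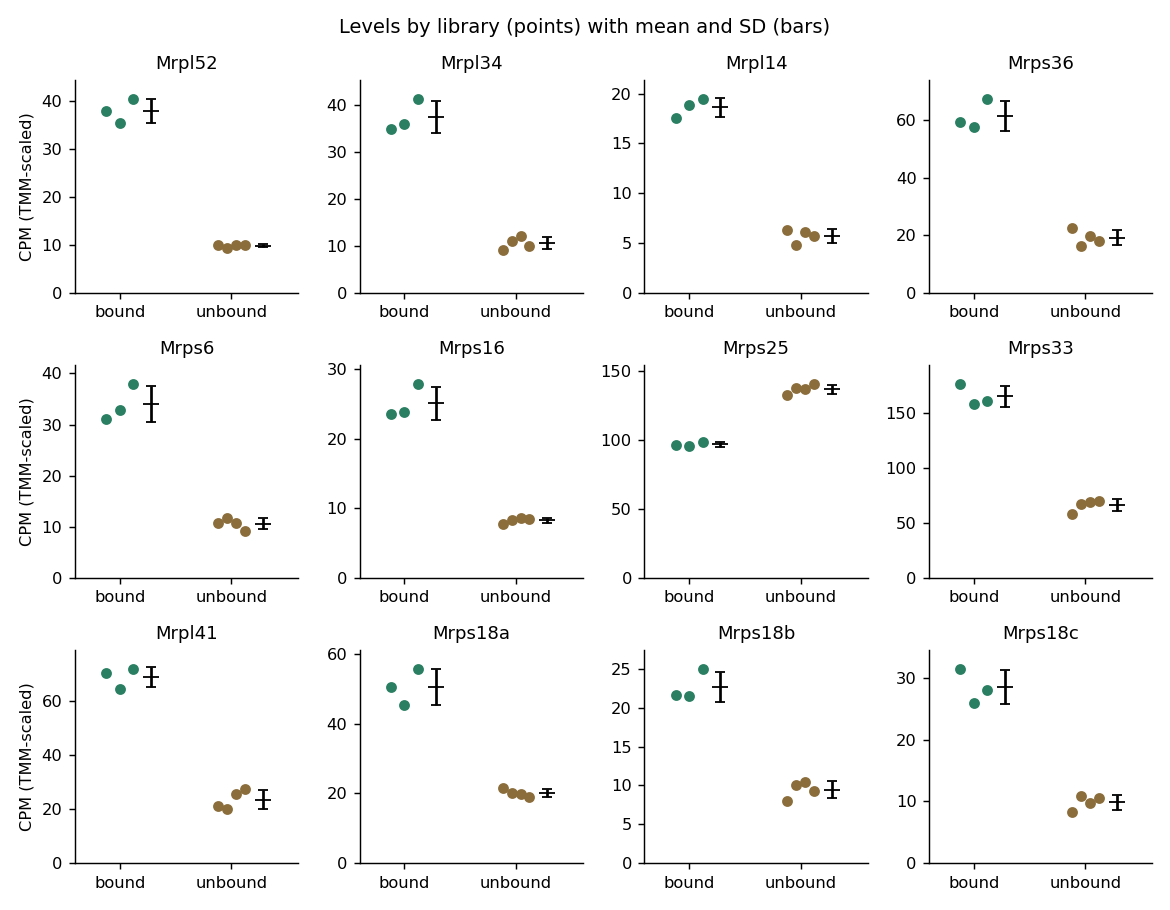
Level in CPM (y axis, from 0) of 12 genes in each bound library (left) and each unbound library (right), with mean and SD beside the points. The groups do not overlap in any panel, but the 12 include the 6 largest rises and the only fall of these data. Over all genes the bound libraries all lay above the unbound ones for 31.7% and all below for 31.6%. Mrps25 is the only gene with its bound libraries, at 95.3 to 98.7 CPM, below its unbound libraries, at 132.3 to 140.3 CPM.

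Some large-subunit genes were picked for the known role of their protein, and these do not stand for the subunit. Mrpl12, the stalk protein that recruits elongation factors, averaged 51.1 ± 5.48 CPM in bound (SD, n = 3) and 20.5 ± 1.66 CPM in the unbound libraries (SD, n = 4), a log2 difference of 1.32. Mrpl10, which anchors the stalk, averaged 55.7 ± 6.57 CPM in the bound and 27.1 ± 2.29 CPM in the unbound libraries, 2.05-fold higher, and Mrpl11, at the stalk base, 40.3 ± 1.96 CPM in the bound and 24.3 ± 1.40 CPM in the unbound libraries, 1.65-fold higher. All 3 rose, without overlap between the groups, though 13.1% of the exon length of Mrpl12 and 14.1% of that of Mrpl10 overlap genes on the opposite strand. Mrpl58, which has kept the ability to release stalled peptides from the ribosome, was 2.12-fold higher, at 54.3 ± 2.53 CPM in the bound and 25.6 ± 1.05 CPM in the unbound libraries. Mrpl45, which lies at the exit of the peptide tunnel near the inner membrane, stood at 14.9, 11.2 and 10.9 CPM in the bound and at 6.20, 9.82, 8.58 and 7.36 CPM in the unbound libraries (log2 0.63, SE 0.181, edgeR adjusted p = 0.011). Bound replicates 2 and 3 lay close above the highest unbound one, and without bound replicate 1 the call was lost (log2 0.47, edgeR adjusted p = 0.0563).

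The 3 Mrps18 paralogues descend from 1 bacterial protein and take different places in the ribosome, Mrps18c that of the bacterial protein, Mrps18b another site in the small subunit and Mrps18a a site in the large subunit. Mrps18a stood at 50.6, 45.3 and 55.6 CPM in the bound and at 21.7, 20.1, 19.7 and 19.0 CPM in the unbound libraries (log2 1.33, SE 0.097). Mrps18b stood at 21.6, 21.5 and 24.97 CPM in the bound and at 8.02, 10.5 and 9.31 CPM in unbound replicates 1, 3 and 4, with replicate 2 within that range (log2 1.26, SE 0.123). Mrps18c stood at 31.4, 26.0 and 28.1 CPM in the bound and at 8.20, 10.8, 9.77 and 10.5 CPM in the unbound libraries (log2 1.54, SE 0.124). All 3 rose (edgeR adjusted p = 5.9e-07, 5.7e-06 and 1.2e-06 for Mrps18a, Mrps18b and Mrps18c), and no difference between the paralogues was tested. Per kilobase of exon the order was Mrps18c, Mrps18a, Mrps18b, with 26.5, 13.7 and 10.9 CPM per kb in the bound and 9.12, 5.46 and 4.52 CPM per kb in unbound libraries. A pseudogene copy of Mrps18b held 26.5% of their joint level in bound and 27.9% in unbound libraries, and exons of other genes overlap Mrps18b by 30.5% and Mrps18c by 23.2% of their length.

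Mrps25 was the only one of the 77 genes to fall. It stood at 96.0, 95.3 and 98.7 CPM in the bound and at 132.3, 137.6, 136.6 and 140.3 CPM in the unbound libraries, with every bound library below every unbound one (log2 -0.50, SE 0.061, edgeR adjusted p = 3.5e-05). It encodes a small-subunit protein and had the highest unbound level of the 77 before correction for length. Its exons overlap those of Nr2c2, a nuclear receptor gene on the opposite strand, by 69.8% of their length. Nr2c2 stood at 148 ± 1.78 CPM in the bound and 238 ± 7.49 CPM in the unbound libraries (log2 -0.68, SE 0.060, edgeR adjusted p = 2.6e-06). Whether the counting used strand is not stated, so reads of these genes cannot be told apart, and the part of Nr2c2 in the level of Mrps25 was not tested. The call was lost with an exon length offset (log2 -0.112, edgeR adjusted p = 0.13), with library totals (log2 -0.066) and in the test against a 1.5-fold minimum.

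Another 10 genes did not pass the threshold, which does not show that they were equal between the groups. They were Mrpl1, Mrpl3, Mrpl9, Mrpl19, Mrpl35, Mrpl48 and Mrps30 of the large and Mrps5, Mrps9 and Mrps27 of the small subunit, with log2 fold changes from -0.25 for Mrpl1 to 0.23 for Mrps30. Mrps30 stood at 11.8, 10.2 and 11.8 CPM in the bound and at 9.20, 8.58, 11.04 and 9.68 CPM in the unbound libraries, with overlap between the groups (SE 0.135, edgeR adjusted p = 0.16). Mrpl1, a protein of the flexible side arm of the large subunit, averaged lower in bound libraries, but its replicates overlapped (SE 0.129, edgeR adjusted p = 0.12). With the length offset 7 of these 10 passed as higher, all except Mrpl1, Mrpl9 and Mrps27, where 37.7% of all genes were called higher. The offset also moved the median log2 fold change of all genes from -0.01 to 0.17.

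Promoters of these genes were searched, as a description only, for short core motifs of factors known to control nuclear genes for mitochondrial proteins. Whether the motifs bear on the difference between bound and unbound libraries was not tested. RefSeq windows (GRCm38.p6, the assembly of mm10, from 250 bases before to 50 after a start) were found for 68 of the 77 genes, 74 windows in all. On either strand, GCGCANGCG for NRF1 was in 16 of 74 windows (21.6%), against 6.2% of 32851 windows of all genes and 8.9% of those of protein-coding genes. CCGGAAG for GABPA was in 25 (33.8%), against 8.9% of all and 11.9% of protein-coding windows, and AAGATGG for YY1 in 13 (17.6%), against 6.3% of each. At least 1 was in 43 windows (58.1%), against 19.2% of all and 23.8% of protein-coding windows, and in 29 of 49 large-subunit and 14 of 24 small-subunit windows. The last letters of CCGGAAG can be the first of AAGATGG, so a stretch may hold both. A match is a description of the letters and shows no binding.

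The windows of the 3 genes with the steepest rise and of Mrps25, the gene that fell, are shown 5′ to 3′ on the gene's strand, with matches in capitals. That of Mrpl52 (plus strand, chr14:54426659-54426958) holds CCGGAAG on the opposite strand in 2 places and AAGATGG once. That of Mrpl34 (plus strand, chr8:71464676-71464975) holds CCGGAAG once, and that of Mrpl14 (plus strand, chr17:45686099-45686398) holds GCGCANGCG once. That of Mrps25 (minus strand, chr6:92183974-92184273) holds none of the motifs. The windows of Mrps36 and Mrps6, with the next steepest rises, also hold none. Among genes that did not pass the threshold, windows of Mrpl3, Mrpl9, Mrpl35, Mrps9 and Mrps27 hold matches. Mrpl48 has a window with a match and others without. Those of Mrpl1, Mrps5 and Mrps30 hold none, and Mrpl19 had no window. The windows shown thus do not stand for the set, and motif and fold change were not compared. In GENCODE M21, on the same assembly, the protein-coding genes themselves run from 54426909 to 54429756 (Mrpl52, ENSMUSG00000010406), 71464959 to 71465747 (Mrpl34, ENSMUSG00000034880), 45686322 to 45698495 (Mrpl14, ENSMUSG00000023939) and 92169525 to 92184033 (Mrps25, ENSMUSG00000014551).
Mrpl52: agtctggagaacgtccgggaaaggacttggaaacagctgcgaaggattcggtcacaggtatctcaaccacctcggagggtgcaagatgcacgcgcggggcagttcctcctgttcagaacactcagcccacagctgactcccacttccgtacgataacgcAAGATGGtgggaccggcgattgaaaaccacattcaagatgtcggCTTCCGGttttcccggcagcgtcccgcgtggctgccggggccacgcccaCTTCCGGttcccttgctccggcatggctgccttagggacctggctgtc
Mrpl34: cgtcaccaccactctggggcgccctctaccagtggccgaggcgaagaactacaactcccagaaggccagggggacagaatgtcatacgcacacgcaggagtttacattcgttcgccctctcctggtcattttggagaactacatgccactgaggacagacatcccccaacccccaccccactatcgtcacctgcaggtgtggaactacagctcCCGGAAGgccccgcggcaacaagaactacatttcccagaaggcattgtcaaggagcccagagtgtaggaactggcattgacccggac
Mrpl14: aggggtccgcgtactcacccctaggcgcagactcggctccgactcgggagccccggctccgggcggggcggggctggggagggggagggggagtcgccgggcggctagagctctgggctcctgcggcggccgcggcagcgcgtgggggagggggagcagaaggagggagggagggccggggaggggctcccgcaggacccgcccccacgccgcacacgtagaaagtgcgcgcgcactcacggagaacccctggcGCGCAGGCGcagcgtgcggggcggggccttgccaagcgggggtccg
Mrps25: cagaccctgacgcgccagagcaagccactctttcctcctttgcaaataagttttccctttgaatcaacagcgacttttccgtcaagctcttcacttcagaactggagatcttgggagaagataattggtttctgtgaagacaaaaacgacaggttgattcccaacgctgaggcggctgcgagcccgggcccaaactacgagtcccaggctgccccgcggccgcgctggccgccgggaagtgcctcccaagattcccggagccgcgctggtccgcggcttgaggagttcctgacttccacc

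Levels per kilobase of merged exon kept much of their order between the groups, with a Spearman rho of 0.92 across the 77 genes, which share their libraries and exon lengths. By the mean of both groups, the highest in the small subunit was Mrps33, a protein with no bacterial homologue, at 99.3 CPM per kb in the bound and 39.7 CPM per kb in unbound libraries. Mrps33 stood at 176.6, 158.9 and 161.2 CPM in the bound and at 58.2, 67.7, 69.1 and 69.8 CPM in the unbound libraries (log2 1.32, SE 0.081, edgeR adjusted p = 1.6e-07). Mrps21 followed at 68.0 CPM per kb in the bound and 26.4 CPM per kb in unbound libraries, and Mrps12 at 43.5 CPM per kb in the bound and 15.2 CPM per kb in unbound libraries, where Mrps25, at 20.8 CPM per kb, stood above Mrps12. In the large subunit the highest by the mean of both groups were Mrpl41, Mrpl34 and Mrpl27, with 77.5, 61.5 and 46.6 CPM per kb in the bound and 26.4, 17.4 and 21.4 CPM per kb in unbound libraries. In bound libraries Mrpl36, at 48.5 CPM per kb, stood between Mrpl34 and Mrpl27. In unbound libraries Mrpl53 (21.5), Mrpl18 (19.97) and Mrpl36 (19.4 CPM per kb) stood above Mrpl34. The median gene stood at 13.7 CPM per kb in the bound and 6.81 CPM per kb in unbound libraries, and the extremes were 0.942 and 99.3 CPM per kb in bound libraries. Mrpl41, a protein with no bacterial homologue, stood at 70.2, 64.6 and 71.7 CPM in the bound and at 21.04, 19.9, 25.7 and 27.2 CPM in the unbound libraries, and Mrpl27, whose bacterial homologue reaches the peptidyl transferase centre, at 45.6, 46.4 and 45.7 CPM in the bound and at 18.5, 17.1, 23.9 and 24.9 CPM in the unbound libraries. In both the UBS pair lay below the UBGS pair, and all bound libraries lay above either. Mrps21 stood at 48.2, 44.0 and 58.6 CPM in the bound and at 19.6, 23.0, 17.3 and 17.98 CPM in the unbound libraries. A pseudogene copy of Mrps21 held 21.5% of their joint level in bound and 20.9% in unbound libraries.

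Most genes of each subunit rose. In the large subunit 43 of 50 genes rose and none fell by edgeR (median log2 0.93), and in the small subunit 22 of 26 rose and 1 fell (median log2 0.82). Over all genes 31.0% rose and 30.7% fell. With the length offset the medians were 0.95 for each subunit, with 47 of 50 and 24 of 26 genes higher, where 37.7% of all genes were higher, 23.4% lower and 61.1% either. Of 45 genes classed as bacterial homologues 38 rose, and of 31 classed as mitochondria-specific 27 rose and 1 fell, at medians of 0.93 and 0.87. Mrps18a and Mrps18b, which descend from a bacterial protein, were counted among the 31. Grouping by symbol gave 42 of 48 Mrpl and 24 of 29 Mrps genes higher. The small-subunit genes summed to 961.1 ± 29.9 CPM in the bound and 576.8 ± 23.7 CPM in the unbound libraries. The large-subunit genes summed to 1723 ± 70.9 CPM in the bound and 931.2 ± 19.0 CPM in the unbound libraries.

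The ratio of these sums depended on 1 gene. Small over large was 0.577, 0.550 and 0.547 in bound and 0.595, 0.632, 0.623 and 0.627 in unbound libraries, lower in every bound library. Without Mrps25 it was 0.519, 0.494 and 0.492 in bound and 0.450, 0.482, 0.479 and 0.479 in unbound libraries, higher in every bound library. No order of the subunits can be read from the sums, since leaving out Mrps25 turned it round.

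**Figure D3:**
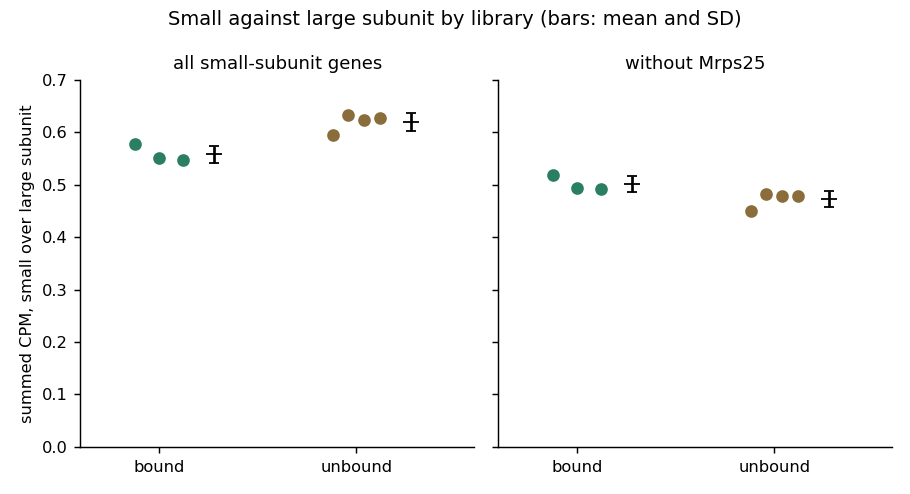
Summed CPM of small-subunit genes over that of large-subunit genes (y axis, from 0) in each bound (left) and unbound (right) library, with mean and SD. With all genes the bound mean is 0.558 and the unbound mean 0.619, and without Mrps25 the order turns, at 0.502 in bound and 0.473 in unbound libraries.

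Exon length went with the size of the difference. The merged exons of the 77 genes ran from 607 to 8631 nucleotides (median 2255) and their longest coding sequences from 261 to 1326 nucleotides (median 588). Across them the Spearman rho of log2 fold change with merged exon length was -0.61, and with coding length -0.55, against -0.31 with merged exon length over 15100 protein-coding genes, all from the same libraries. With the length offset the rho over the 77 was -0.08. The 9 genes under 1000 nucleotides had a median log2 fold change of 1.42 and all rose, where protein-coding genes of that length had a median of 0.92 and 55.4% rose. From 1000 to under 2000 nucleotides all 22 rose (median 1.22), where the protein-coding median was 0.59 and 51.3% rose. From 2000 to under 4000 nucleotides 23 of 25 rose (median 0.87, against 0.17 and 37.2%), and from 4000 to under 8000 nucleotides 9 of 17 rose (median 0.62, against -0.15 and 25.4%). Of the 4 genes of 8000 nucleotides and over, 3 rose (median 0.73, against -0.49 and 15.9%). The 77 genes thus lay above the median of protein-coding genes in each length class, and 69 of the 77 singly did so. Merged exons join all annotated isoforms, so they overstate the length of the message of many of these genes.

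**Figure D4:**
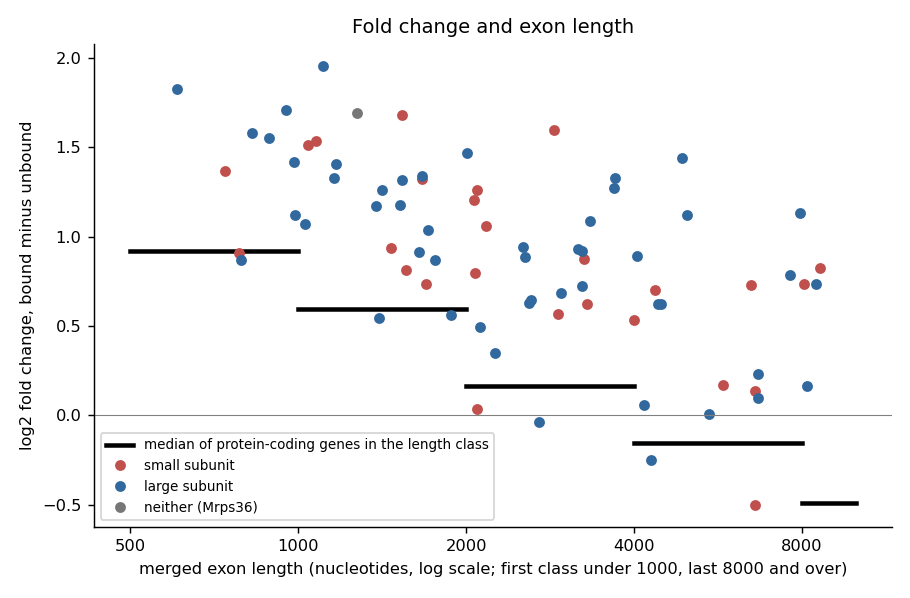
Log2 fold change (y axis, bound minus unbound) of the 77 genes against merged exon length (x axis, nucleotides, log scale), coloured by subunit, with the median of protein-coding genes in each length class as a black line. Points fall with length as the line does, and most lie above it, by 0.50 in the shortest class (median 1.42 over 0.92).

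Other nuclear genes of mitochondrial gene expression were counted by list, and no difference between the lists and the 77 genes was tested. Among ribosomal proteins that go by other symbols, 3 of 5 were higher: Chchd1 (log2 1.48), Aurkaip1 (log2 1.30) and Gadd45gip1 (log2 1.05). Dap3, a GTP-binding small-subunit protein (log2 0.06), and Ptcd3, at the entry of the message (log2 -0.31), did not pass. Of 26 assembly and rRNA modification factors 12 rose and 3 fell (median log2 0.34). Ngrn, neugrin, rose most, at 24.0 ± 2.10 CPM in the bound and 11.3 ± 1.31 CPM in the unbound libraries, and Mettl15, an rRNA methyltransferase, fell, at 1.37 ± 0.258 CPM in the bound and 2.56 ± 0.915 CPM in the unbound libraries. Of 15 translation factors 7 rose and 2 fell (median log2 0.44), with Tsfm, the exchange factor of mitochondrial EF-Tu, at log2 0.69 and Guf1, a translational GTPase, at log2 -1.05. Of 14 genes of mitochondrial transcription and RNA turnover 3 rose and 6 fell (median log2 -0.02), with the exonuclease gene Rexo2 at log2 0.52 and Mterf1a, a transcription terminator, at log2 -1.44. The shares past the threshold in either direction were 57.7% of assembly factors, 60.0% of translation factors and 64.3% of transcription and turnover genes. These are near the 61.7% of all genes tested, so the shares in either direction set none of the 3 lists apart. By direction, assembly and translation factors had more rises than falls, and transcription and turnover genes more falls. Over all genes 31.0% rose and 30.7% fell.

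The parts of the mitochondrial ribosome made in the organelle went the opposite way. The small-subunit rRNA mt-Rnr1 stood at 187.4 ± 38.9 CPM in the bound and 55005 ± 5111 CPM in the unbound libraries, 294-fold lower, and the large-subunit rRNA mt-Rnr2 at 518.9 ± 109.6 CPM in the bound and 280041 ± 27709 CPM in the unbound libraries, 540-fold lower (edgeR adjusted p = 1.9e-10 each). All 13 mitochondria-encoded messages also fell (median log2 -6.96), mt-Nd6 by the most (log2 -8.35). As background, these RNAs are read inside the organelle and not by the cytosolic ribosomes that carry the tag. Nuclear oxidative phosphorylation genes had 74 of 84 higher and 2 lower (median log2 1.36). Cytosolic ribosomal protein genes had 43 of 76 higher and 7 lower (median log2 0.30), where 31.0% of all genes rose and 30.7% fell. The median of the 77 genes thus lay between those of these lists. Cox6a2, a cytochrome oxidase subunit, rose most of the oxidative phosphorylation genes (log2 3.12) and Cox8b fell most (log2 -1.67). Among cytosolic ribosomal protein genes these were Rpl36 (log2 1.54) and Rpsa (log2 -0.81).

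**Figure D5:**
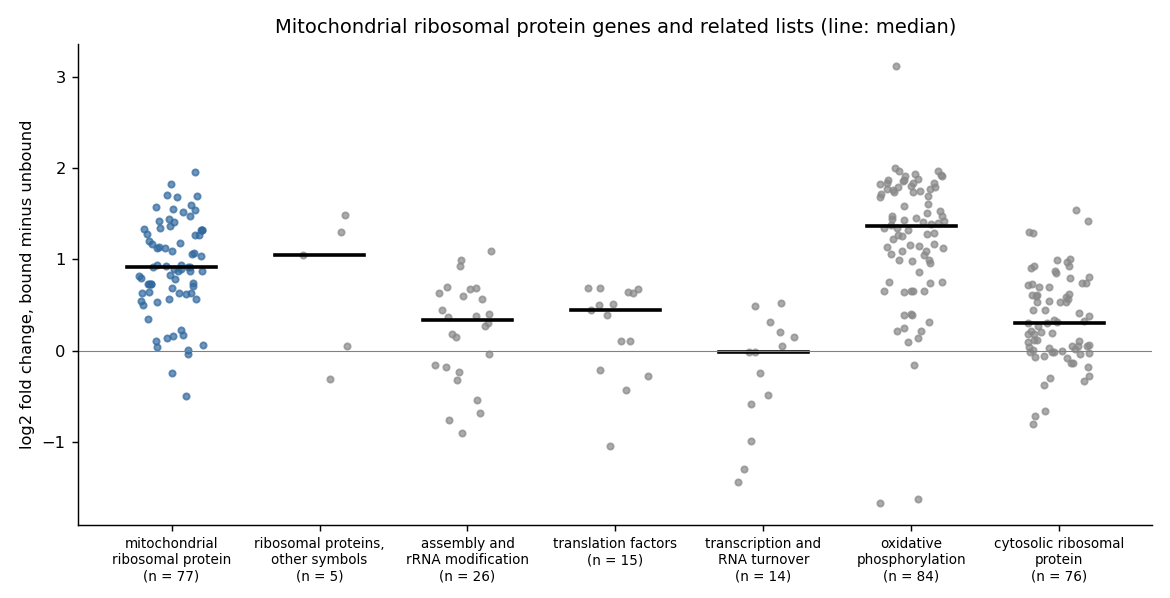
Log2 fold change (y axis, bound minus unbound) of each gene in the mitochondrial ribosomal protein set and in 6 related lists (x axis), with the median as a line. The 77 genes are centred at 0.91, below oxidative phosphorylation genes at 1.36 and above assembly factors at 0.34 and cytosolic ribosomal protein genes at 0.30.

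Among the bound libraries, replicate 3 held the highest level of 40 of the 77 genes, replicate 1 of 23 and replicate 2 of 14. The median gene stood at 31.4, 30.9 and 33.5 CPM in bound replicates 1, 2 and 3. Without replicate 2, the library with the most microglia marker RNA, 65 of the 77 genes rose, where 5853 of all 20117 genes tested did. The other bound libraries also held more of that RNA than the unbound ones, and its part in these levels was not tested. Leaving out each library in turn left 64 to 67 genes higher and Mrps25 lower. Over all genes these fits called 5598 to 6071 higher and 5263 to 6034 lower, of 19231 to 20174 tested.

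Within the unbound group, the UBS and UBGS libraries were compared, since their titles set them apart. None of the 77 genes passed (edgeR, smallest adjusted p = 0.15), where 44 of 19256 genes (0.229%) did. At an unadjusted p under 0.05 there were 14 of the 77 (16.8% of all genes), and DESeq2 called none of the 77 and 301 (1.56%) of all genes. UBS libraries were lower for 53 and higher for 24 of the 77 (median log2 -0.10, UBS minus UBGS, and 0.00 over all genes), from -0.64 for Mrpl44 to 0.51 for Mrps31. Leaving out unbound replicate 1 or 2, which leaves 1 UBS library assumed to vary like the UBGS pair, gave 17 and 37 calls among the 77 by edgeR, where 23.5% and 36.9% of all genes were called. Leaving out replicate 3 or 4 gave none of the 77 by edgeR, where 0.0794% and 0.0946% of all genes were called.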

How the data were processed

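Read counts per gene came from 7 libraries. The deposited table holds whole-number counts that are not normalized. The authors used mm10, HTSeq and STAR 2.5.3a per the submitters' processing notes. Annotation release, strand setting and treatment of multiply matching reads: not given in the sources used here. IDs were matched to GENCODE M21 (GRCm38), which named 37693 of 39017. All genes were fitted together in edgeR 4.0.16 (R 4.3.3) with filterByExpr, TMM scaling and a robust quasi-likelihood test, Benjamini-Hochberg adjustment and a threshold of 0.05. SE values come from the F statistic. In simulated bound and unbound counts (19170 genes), 61 of 95 genes given a log2 change of 1 were found, as were 80 of 96 given 2, and 8 unchanged genes were called. The simulation changed few genes and did not copy the difference in mitochondria-encoded RNA, whereas 61.7% of genes were called in the data. Its rates therefore need not hold for the data. No library was an exact repeat deposit of another in its group. The variance between unbound replicates 3 and 4, the UBGS pair, was 5.57 times that of counting. In all other pairs of a group it was 25 to 46.3 times. Whether the UBGS pair shares animals or RNA is not stated. Exon length is that of all annotated exons merged. Near-identical copies are annotated pseudogene transcripts that align at 95% identity or more over at least 200 bases (blastn). Genes shown by library are the 6 largest rises and falls past the threshold (1 gene fell), the 3 highest per length in each subunit, genes picked by role, and the largest rise and fall of each related list. The members and lists were chosen with earlier results of these data known. Alternatives were other scalings (DESeq2 1.42.0 size factors, library totals, TMM without mitochondria-encoded genes and Gm42418), no filter, DESeq2, a 1.5-fold minimum, a loess length offset, UBS or UBGS libraries alone, and each library left out.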

Additional observations from a re-analysis of the deposited data

Results flagged for a closer look

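In 4 of 77 genes, 1 of the 4 unbound libraries stood far from the other 3 by Dixon's criterion, which chance alone meets in about 1 in 20 groups. Mrpl17 was at 45.0 CPM in unbound replicate 1, against 39.7 to 40.4 CPM in the others. Mrps34 was at 16.1 CPM in unbound replicate 1, against 21.9 to 22.9 CPM. Mrpl46 was at 8.81 CPM in unbound replicate 3, against 8.23 to 8.32 CPM, and Mrpl52 at 9.28 CPM in unbound replicate 2, against 9.905 to 10.02 CPM. All 4 genes were higher in each bound library than in each unbound one, as were 64 of the 77 and 31.7% of all genes.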

How the results depend on the processing

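Across 16 alternative settings 46 of the 77 genes kept their call and direction, 45 of them higher in bound libraries. The 1.5-fold minimum alone took away 22 calls and left 45 higher, where 16.6% of all genes were higher. The number of all genes that kept their call across settings was not counted. Mrps25 was the lone fall except with the length offset, library totals and a 1.5-fold minimum, where 0 genes fell. Counting only genes with an exon overlap of at most 10% leaves Mrps25 out and so does not test its fall. With library totals, which shifted all genes by 0.43, Mrpl9 turned to 0.403, and medians were 1.249 (small subunit), 1.360 (large subunit), 1.482 (other symbols), 0.768 (assembly), 0.885 (translation factors), 0.418 (transcription), -8.200 (mitochondrial rRNA), -6.530 (mitochondrial mRNA), 1.791 (oxidative phosphorylation) and 0.737 (cytosolic ribosome). With the length offset they were 0.945 (small subunit), 0.483 (assembly), -8.900 (mitochondrial rRNA), -7.303 (mitochondrial mRNA) and 1.161 (oxidative phosphorylation), with 5 transcription genes past the threshold in place of 9. With UBS libraries alone the medians were 1.058 (large subunit) and -0.215 (transcription), with 4 transcription genes past. A 1.5-fold minimum left 3 of 15 assembly, 1 of 9 translation, 1 of 9 transcription and 18 of 50 cytosolic ribosome calls. Leaving out each library gave 5 to 7 transcription calls, medians of 0.893 to 0.994 (large subunit) and 1.274 to 1.409 (oxidative phosphorylation). Between UBS and UBGS it gave 0 to 37 calls among the 77, where 0.0794% to 36.9% of all genes were called, with the 37 from a fit that held 1 UBS library. The causes were not tested. TMM without mitochondria-encoded genes gives no value for those genes. No paired analysis was possible because the labels give bound and unbound libraries no pairing. The faintest of the 77 genes averaged 4.53 CPM in unbound libraries.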

Other observations

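Some genes of the set share sequence or exons with others, and their levels are uncertain. Near-identical pseudogene copies were found for 19 of the 77 genes, and for 9 of them the copies held at least 10% of the joint level in one group or both. Mrpl23-ps1 averaged 23.15 CPM in the bound and 8.72 CPM in the unbound libraries, close to Mrpl23 itself (26.85 CPM in bound, 9.88 CPM in unbound). Mrps36-ps1 rose like Mrps36 (log2 1.66, edgeR adjusted p = 7.6e-07). Exons of Mrpl53 overlap those of Gm42688 on the same strand by 88.0% of their length, and Gm42688 rose too, with 32.1 ± 2.88 CPM in the bound and 17.9 ± 2.37 CPM in the unbound libraries. Exons of Mrps34 overlap Nme3 by 37.0% on the same strand and Mapk8ip3 by 63.4% on the opposite strand, and both partners rose too (log2 1.095 and 0.51). Gm16279, opposite Mrps18b, stood at log2 1.71. Not all overlapping genes rose. Gcfc2, opposite 36.0% of the exon length of Mrpl19, fell (log2 -1.305, edgeR adjusted p = 0.000313), and Mrpl19 did not pass. Twnk, opposite 33.4% of the exon length of Mrpl43, stood at log2 -0.019. Nr2c2 and Slc5a3, described above, fell as well. Of the 59 genes with an exon overlap of at most 10%, 51 rose and none fell by edgeR, a count chosen after seeing the data. Mrps25, the only gene of the 77 to fall, is not among the 59, so this choice left its fall out. Over all genes 31.0% rose and 30.7% fell.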
